A study of Mus musculus with 16 samples.

Results

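Ribosome biogenesis and nucleolar genes were followed in mouse CD8 T cells with and without the transcription factor Batf3. The 38 genes were taken by symbol from the 55335 genes of the deposited count table, and all 38 passed the filter on low counts that left 15197 genes for testing. They comprise 3 proteins of the box C/D snoRNP (a small nucleolar RNA with its proteins), 4 genes of the box H/ACA snoRNP and its assembly, 3 RNA polymerase I subunits, 6 nucleolar chaperones, helicases and regulators, 13 factors of the small ribosomal subunit and 9 factors of the large subunit.

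Poly-A RNA was sequenced from 4 groups of 4 libraries each: wild-type (wt) cells and Batf3-/- (ko) cells, each after 48 h and after 72 h in culture. All cells came from spleens of mice labelled C57BL/6, were enriched for CD8 T cells and shared the same culture, with 50 ng/ml of the cytokine IL-15 and with antibodies to CD3e (bound to the plate) and CD28, 1 µg/ml of each. The labels give no unstimulated group and no age of the mice, and they do not say how many animals stand behind a group. By the series text the 4 libraries are technical replicates. Each p-value here therefore measures how far such libraries spread, which says nothing of animals.

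Ribosomes are built in the nucleolus. RNA polymerase I transcribes one long precursor there, snoRNPs guide its chemical modification, and a large set of assembly factors folds, cuts and exports it as the small and the large subunit together with the ribosomal proteins. Activated T cells make many ribosomes while they enlarge and divide, and the transcription factor Myc is a well-known activator of both the assembly factors and the polymerase. Poly-A sequencing measures the mRNAs of these factors. It does not measure the ribosomal RNA precursor or the snoRNAs.

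Myc and its relatives bind the E-box with the letters CACGTG, which reads the same on both strands, and the promoters of the members were searched for it because the members moved together. The RefSeq promoter table (build GRCm38.p6, 250 bases before to 50 bases after each start) held 33 of the 38 members, and Npm1, Rrp12, Fbl, Bop1 and Rrs1 had no entry. The motif was present in 8 of the 33 (24.24%), against 2187 of 27025 genes of the table (8.093%), 20 of 99 other ribosome biogenesis genes (20.2%) and 6 of 58 ribosomal protein genes (10.34%). A match is a description of letters and not a measured binding site. The 8 matches are shown as 30 bases read 5′ to 3′ on the strand of the gene, with the E-box in capitals and the start not marked. Since the entries end 50 bases after the start, a match after it could only lie near it.
Nop2: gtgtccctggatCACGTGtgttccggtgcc
Grwd1: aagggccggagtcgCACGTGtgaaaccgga
Utp4: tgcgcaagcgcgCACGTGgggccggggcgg
Ltv1: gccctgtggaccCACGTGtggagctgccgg
Utp20: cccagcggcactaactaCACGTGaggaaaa
Pes1: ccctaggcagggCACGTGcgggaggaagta
Mybbp1a: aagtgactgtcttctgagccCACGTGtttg
Wdr43: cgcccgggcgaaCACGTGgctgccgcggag

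In Nop2 (chr6:125131811-125131840, plus strand) the motif begins 60 bases before the start. In the other 7 it begins after it, at base 3 in Pes1 (chr11:3963965-3963994, plus), 16 in Utp4 (chr8:106893643-106893672, plus), 18 in Wdr43 (chr17:71616220-71616249, plus), 29 in Ltv1 (chr10:13193092-13193121, minus), 35 in Grwd1 (chr7:45830740-45830769, minus), 38 in Utp20 (chr10:88826765-88826794, minus) and 41 in Mybbp1a (chr11:72441347-72441376, plus). The 250 bases before the start of Nop2, which encodes a methyltransferase of large subunit ribosomal RNA (chr6:125131633-125131882, plus strand, E-box in capitals), show the one match that lies upstream in its setting.
Nop2 upstream: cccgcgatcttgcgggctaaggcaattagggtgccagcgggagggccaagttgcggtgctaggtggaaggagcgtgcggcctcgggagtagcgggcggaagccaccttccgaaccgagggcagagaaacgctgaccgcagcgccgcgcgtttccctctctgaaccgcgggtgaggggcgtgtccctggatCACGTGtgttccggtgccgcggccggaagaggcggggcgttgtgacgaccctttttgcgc

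Library totals ran from 29375818 to 39241169 counts. Batf3 stood at 75.8 to 87.7 CPM (counts scaled by the library's total of counted reads) in wt cells at 48 h and 28.7 to 34.2 at 72 h, and at no more than 0.366 CPM in any ko library, as the genotype labels of all 16 libraries state. The 10 markers of CD8 T cells summed to 3006 to 3216 CPM in wt and 3235 to 3576 in ko at 48 h, and to 3676 to 3998 in wt and 4010 to 4336 in ko at 72 h, with no overlap between groups. These markers did not move alike. Cd3g had means of 202 CPM in wt and 243 in ko at 48 h and of 424 and 568 at 72 h. Cd2 fell with time, from 395 and 408 to 244 and 259. Cd8b1 changed little (331 and 330, then 346 and 348), and Cd8a stood at 292 and 286, then 345 and 306. Of 4 CD4 T cell markers 3 passed the filter, and their sum (19.4 to 29.2 CPM at 48 h, 45.9 to 60.9 at 72 h) was nearly all Zbtb7b, with mean Cd4 levels of at most 0.772 CPM. The 9 markers of NK and gamma delta T cells summed to 58.6 to 64.0 CPM in wt and 63.1 to 76.5 in ko at 48 h, and to 72.2 to 80.01 in wt and 70.4 to 76.7 in ko at 72 h. Among them Klre1 had means of 4.76 CPM in wt and 9.40 in ko at 48 h and of 9.80 and 18.4 at 72 h, and the means of Klrb1c and Tyrobp were also higher in ko at both times. Eomes, the largest part of the sum, went the other way at 72 h, with means of 50.8 CPM in wt and 33.9 in ko. At 48 h its means were 49.6 in wt and 49.0 in ko. Of 9 B cell markers 4 passed the filter, and their sum (224.1 to 335.5 CPM) was nearly all Ighm, with Ms4a1 and Pax5 near 0. Of 14 myeloid markers 5 passed, with a sum of 138.9 to 149.3 CPM in wt and 173.9 to 188.1 in ko at 48 h and of 184.9 to 204.9 in wt and 257 to 273.5 in ko at 72 h, while S100a8, S100a9 and Adgre1 stood at or near 0. Most of that sum was Ly6c2, with means of 133 CPM in wt and 161 in ko at 48 h and 163 and 198 at 72 h. Ccr2 had means of 8.20 and 13.1 CPM at 48 h and of 23.8 and 45.9 at 72 h. Those of Fcgr3 were 0.227 and 3.46, and 0.675 and 8.92. Cd68 had means of 1.47 CPM in wt and 1.34 in ko at 48 h and of 6.29 and 9.37 at 72 h. Lyz2, Itgam, Csf1r and Cd14 had means of at most 0.426 CPM. Of 4 erythroid markers 0 passed. The sums rest largely on single genes, and whether cells other than CD8 T cells were present was not tested. Any part of such cells in the differences between genotypes and between times was not tested either. The libraries ko 48 h replicate 4 and wt 72 h replicate 4 lay farther from the rest of their groups than the others did (SD of the log2 difference 0.234 and 0.218, against 0.109 to 0.162). Some of the results that rest on them are given with and without them.

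Most messages for building ribosomes fell between 48 h and 72 h in both genotypes. In wt cells 37 of the 38 genes were lower at 72 h and 0 were higher (edgeR quasi-likelihood test, adjusted p below 0.05), where 29.9% of all tested genes were called lower and 33.6% higher. The median log2 fold change of the 38 was -1.23, a 2.35-fold fall, against a median of 0.05 over all tested genes. In ko cells 36 were lower and 0 higher, where 33.6% of all tested genes were called lower and 34.4% higher, and the median was -1.45, a 2.73-fold fall, against 0.03 over all genes. A lower level per cell and a smaller share of cells that hold these messages cannot be told apart in bulk RNA. All values are relative to the other genes of a library, so a change in total mRNA per cell cannot be seen in them. Across the 38 genes the changes of the 2 genotypes followed the same order (Spearman 0.97, a description across genes, which are not independent replicates).

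**Figure D1:**
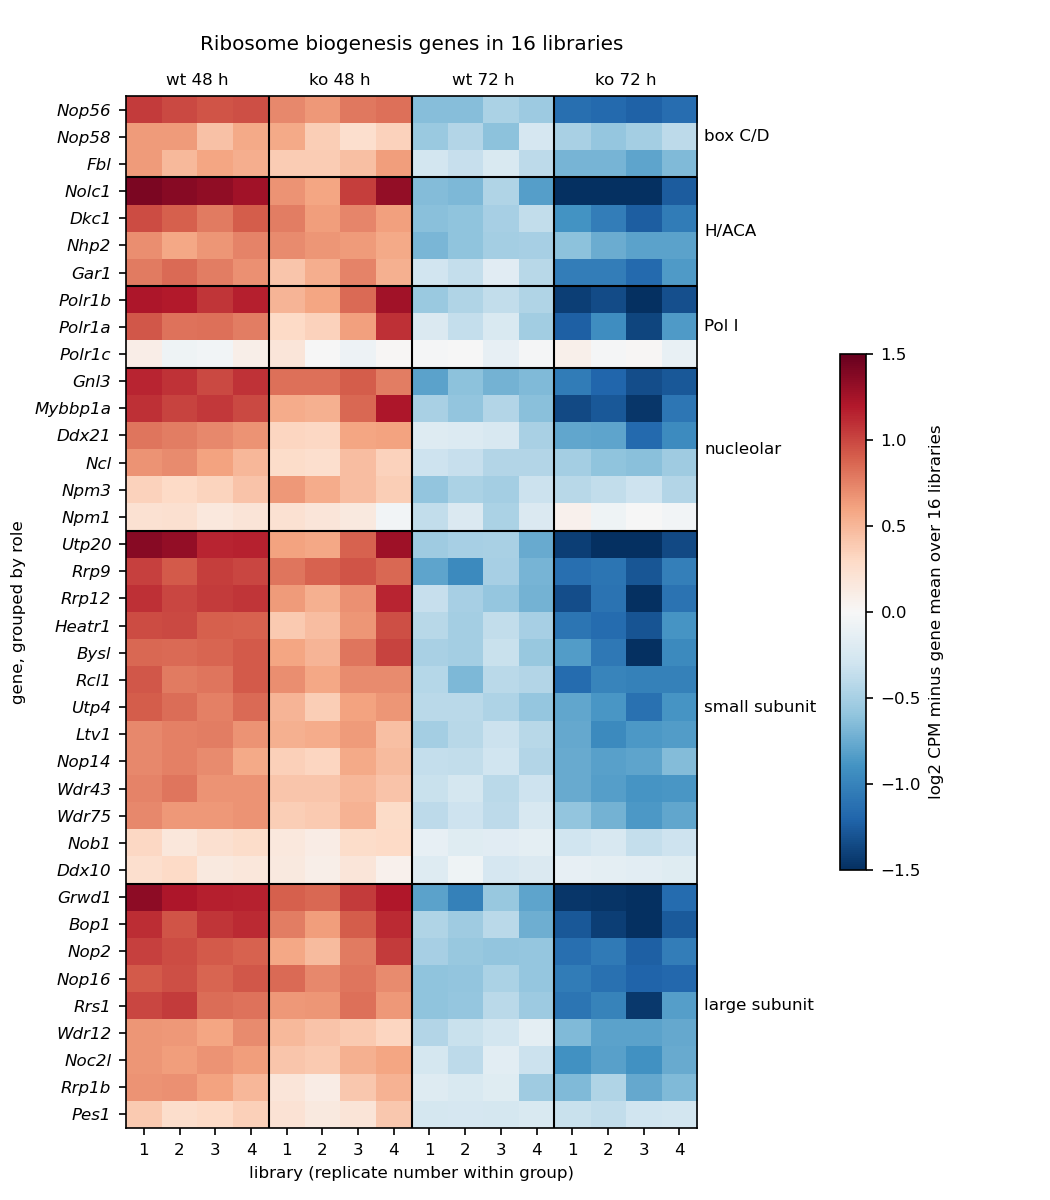
Heat map of log2 CPM minus the mean of the gene over the 16 libraries (colour; red above and blue below the gene's mean, with the colour range ending at -1.5 and 1.5) for the 38 genes, ordered by role, in columns of 4 libraries a group. The 72 h columns are blue and the 48 h columns red in nearly every row; Polr1c stays near its mean throughout and Npm1 is lowest in wt cells at 72 h.

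The 3 box C/D proteins sit on the snoRNAs that guide ribose methylation, with fibrillarin (Fbl) as the methyltransferase and Nop56 and Nop58 as its partners. All 3 fell with time in both genotypes. Nop56 was read at 507, 488, 470 and 479 CPM in wt cells at 48 h and at 158, 157, 176 and 167 at 72 h. In ko cells it stood at 405, 386, 425 and 435 CPM at 48 h and at 112, 109, 105 and 111 at 72 h. None of the 4 groups overlapped, with wt above ko at each time and 48 h above 72 h in each genotype. Its log2 fold change with time was -1.59 in wt (SE 0.05, edgeR quasi-likelihood adjusted p = 1.71e-17) and -1.85 in ko (SE 0.05, adjusted p = 9.26e-19).

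Nop58 had the highest mean of the box C/D genes in CPM over the 16 libraries. It was read at 454, 454, 394 and 432 CPM in wt and 430, 374, 347 and 370 in ko at 48 h, and at 198, 214, 189 and 244 in wt and 207, 195, 204 and 221 in ko at 72 h. The genotypes overlapped at both times and the times did not overlap in either genotype. The fall with time was -1.06 (SE 0.08) in wt and -0.82 (SE 0.08) in ko, and that of Fbl -0.91 (SE 0.05) and -1.11 (SE 0.06) on the log2 scale.

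Of the box H/ACA group, Dkc1 (dyskerin) is the enzyme that makes pseudouridine, Gar1 and Nhp2 are core partners, and Nolc1 is a nucleolar chaperone of snoRNPs. All 4 fell in both genotypes. Nolc1 showed the second largest fall of the 38 in wt cells (-2.02, SE 0.13) and the largest in ko cells (-2.44, SE 0.13), from 313, 303, 294 and 282 CPM in wt at 48 h to 74.7, 73.3, 85.4 and 65.9 at 72 h. Its ko values were 187, 177, 240 and 292 CPM at 48 h, where the last library stood within the wt range, and 39.8, 36.1, 32.1 and 49.4 at 72 h, all below every wt library.

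Dkc1 was read at 297, 282, 259 and 284 CPM in wt and 258, 234, 251 and 232 in ko at 48 h. At 72 h it stood at 97.8, 99.3, 107 and 117 in wt and at 81.3, 73.7, 64 and 73.2 in ko, so that ko lay below wt without overlap at both times as shares of the library. At 48 h Dkc1 did not pass the test between genotypes (-0.17, SE 0.07, edgeR quasi-likelihood adjusted p = 0.18). Its fall with time was -1.44 (SE 0.08) in wt and -1.68 (SE 0.08) in ko. That of Nhp2 was -1.27 (SE 0.07) in wt and -1.32 (SE 0.07) in ko.

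RNA polymerase I makes the ribosomal RNA precursor. Polr1a and Polr1b encode its 2 largest subunits, which form the active site, and Polr1c encodes a smaller subunit that polymerase III also contains. Polr1b fell from 75.2, 73.9, 68 and 72.7 CPM in wt cells at 48 h to 22, 23.6, 25 and 23.6 at 72 h, a log2 fold change of -1.65 (SE 0.12). In ko cells it went from 45.9, 48.8, 58.3 and 77.2 CPM to 12.1, 12.8, 8.39 and 13, a change of -2.24 (SE 0.13). Polr1a changed by -1.19 (SE 0.13) in wt and -1.63 (SE 0.13) in ko on the log2 scale.

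Polr1c was the one gene of the 38 that did not pass the test with time in wt cells. It was read at 127, 114, 115 and 126 CPM in wt and 135, 118, 113 and 120 in ko at 48 h, and at 117, 118, 109 and 117 in wt and 125, 117, 120 and 110 in ko at 72 h. All 4 groups overlapped. Its log2 fold change with time was -0.09 (SE 0.07, edgeR quasi-likelihood adjusted p = 0.254) in wt and 0.02 (SE 0.07, adjusted p = 0.812) in ko. The values for Polr1a and Polr1b are those given above.

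Among the nucleolar chaperones and regulators, nucleolin (Ncl) and nucleophosmin (Npm1) are the most abundant nucleolar proteins, Npm3 is a relative of Npm1, Ddx21 is an RNA helicase, Gnl3 is nucleostemin, a nucleolar GTP-binding protein, and Mybbp1a binds Myb and the nucleolar transcription machinery. All 6 fell in wt cells and 5 of 6 in ko cells. Gnl3 (-1.80, SE 0.07 in wt; -1.98, SE 0.07 in ko) and Mybbp1a (-1.60, SE 0.10; -2.03, SE 0.10) moved most. Ncl changed by -1.03 (SE 0.06) in wt and -0.84 (SE 0.06) in ko, Ddx21 by -1.04 (SE 0.08) and -1.31 (SE 0.08), and Npm3 by -0.85 (SE 0.07) and -0.84 (SE 0.07).

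Npm1 was, with Polr1c, one of the 2 genes that did not pass with time in ko cells. It was read at 4113, 4125, 3893 and 4015 CPM in wt cells at 48 h and at 2711, 3005, 2512 and 3021 at 72 h, a log2 fold change of -0.54 (SE 0.08, adjusted p = 9.86e-07). In ko cells it stood at 4118, 3960, 3886 and 3418 CPM at 48 h and at 3652, 3348, 3480 and 3397 at 72 h, a change of -0.09 (SE 0.08, edgeR quasi-likelihood adjusted p = 0.325). The 2 times overlapped in ko cells and were far apart in wt cells. Without ko 48 h replicate 4 the fall in ko cells reached adjusted p = 0.0459 at a log2 fold change of -0.16. Near-identical copies of Npm1 in the genome could share its reads.

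The 13 small subunit factors belong to the processome that assembles on the precursor (Utp4, Utp20, Heatr1, Wdr43, Wdr75, Nop14, Rrp9, Rcl1, Ddx10) or act later in maturation and export (Bysl, Ltv1, Nob1, Rrp12). All 13 fell in both genotypes, with a median of -1.33 in wt and -1.38 in ko. Utp20, a very large scaffold protein, was read at 126, 121, 107 and 108 CPM in wt and 73.8, 72.5, 89.6 and 118 in ko at 48 h, and at 33.5, 34.4, 34.7 and 28.8 in wt and 18.3, 16, 15.4 and 19.1 in ko at 72 h. Its fall was -1.84 (SE 0.11) in wt and -2.29 (SE 0.11) in ko, the largest of the group in both.

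Wdr43, the small subunit factor with the highest mean CPM, was read at 305, 316, 291 and 290 CPM in wt and 243, 244, 256 and 245 in ko at 48 h. At 72 h it stood at 145, 152, 137 and 146 in wt and at 108, 102, 98.5 and 99.2 in ko, and none of the 4 groups overlapped. Its fall with time was -1.08 (SE 0.06) in wt and -1.21 (SE 0.06) in ko. The smallest falls of the group were those of Nob1, the nuclease that makes the final cut of small subunit RNA (-0.43, SE 0.06 in wt; -0.45, SE 0.06 in ko), and of the helicase Ddx10 (-0.43, SE 0.06; -0.21, SE 0.06). With offsets that take out the trend of each library with exon length the ko value of Ddx10 was -0.04 and did not pass (adjusted p = 0.571). Those of the other 10 lay between -1.03 and -1.76 in wt and between -1.07 and -1.95 in ko.

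The 9 large subunit factors hold the Pes1, Bop1 and Wdr12 complex, the RNA methyltransferase Nop2, Noc2l, Nop16, Rrs1, Rrp1b and Grwd1, a chaperone of ribosomal protein uL3. All 9 fell in both genotypes, with a median of -1.49 in wt and -1.71 in ko. Grwd1 showed the largest fall of all 38 in wt cells (-2.03, SE 0.09) and the second largest in ko cells (-2.35, SE 0.09), from 57 to 64.7 CPM in wt at 48 h to 12.7 to 17.2 at 72 h. The 3 partners of the Pes1 complex fell to different degrees, Bop1 by -1.62 (SE 0.08), Wdr12 by -0.97 (SE 0.07) and Pes1 by -0.61 (SE 0.06) in wt cells on the log2 scale. In ko cells the same genes changed by -2.18 (SE 0.09), -1.10 (SE 0.07) and -0.49 (SE 0.06).

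Noc2l, the large subunit factor with the highest mean CPM, was read at 322, 314, 325 and 316 CPM in wt and 272, 267, 294 and 308 in ko at 48 h, and at 170, 156, 183 and 163 in wt and 109, 116, 109 and 121 in ko at 72 h. The genotypes did not overlap at either time as shares of the library, but Noc2l did not pass the test between genotypes at 48 h. Its fall was -0.95 (SE 0.06) in wt and -1.26 (SE 0.06) in ko.

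**Figure D2:**
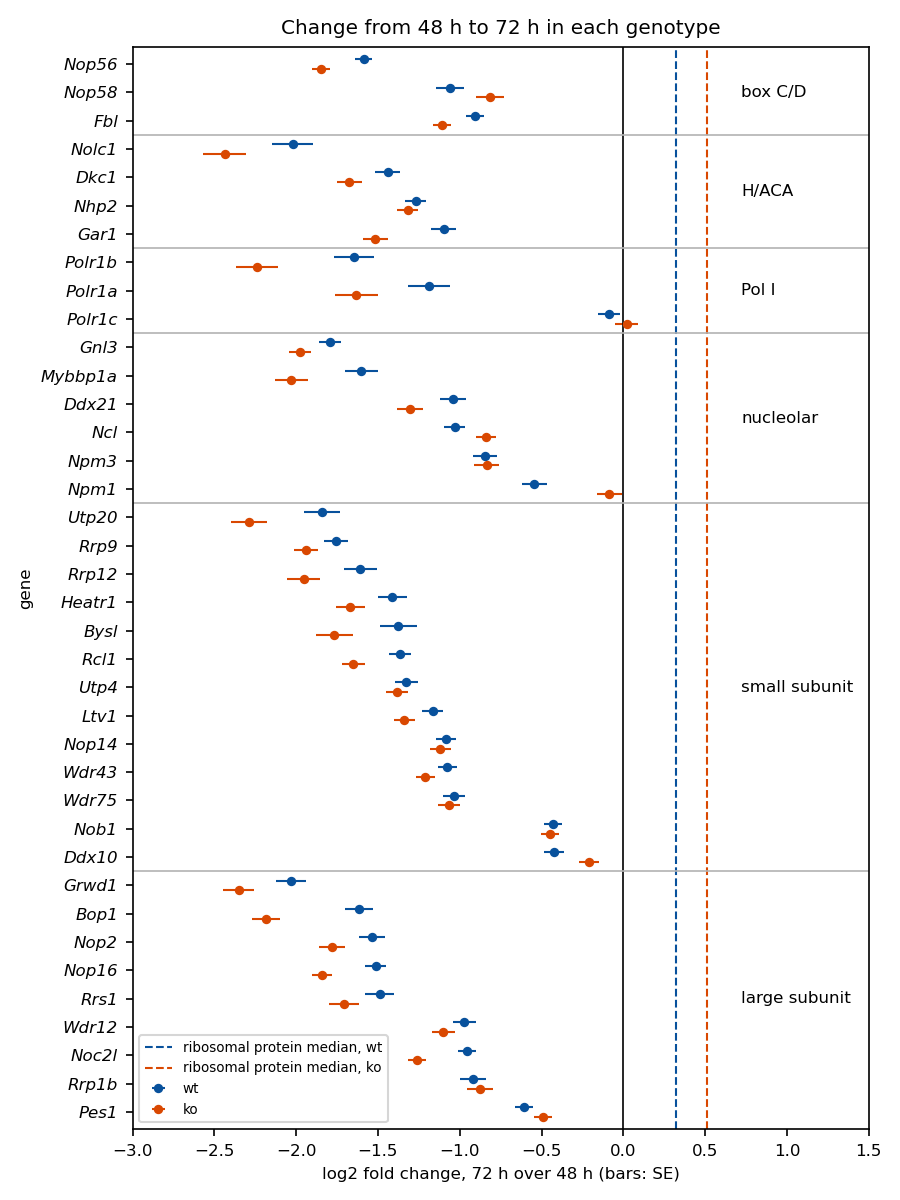
Log2 fold change from 48 h to 72 h (horizontal axis; bars show the standard error of the fit) for each of the 38 genes in wt cells (blue) and ko cells (orange), grouped by role, with the medians of 79 ribosomal protein genes as dashed lines. All wt points lie below 0, with Polr1c at -0.09 nearest to it, and both dashed lines lie above 0.

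At 48 h, 8 of the 38 genes were lower in ko than in wt cells and 0 were higher, where 2.66% of all tested genes were called lower and 4.41% higher (edgeR quasi-likelihood test). The 8 were Nop56 and Ncl, the small subunit factors Utp20, Utp4, Wdr43, Wdr75 and Nop14, and the large subunit factor Rrp1b. The differences were small. The median log2 fold change of the 38 was -0.18 against 0.01 over all tested genes, 35 of 38 lay below 0, and the range was -0.38 to 0.20.

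Utp20 had the largest of these 8 differences, at -0.36 (SE 0.10, edgeR quasi-likelihood adjusted p = 0.0361). Of its ko libraries 3 (72.5 to 89.6 CPM) lay below all wt libraries (107 to 126), and ko replicate 4 at 118 lay within them. Rrp1b (-0.27, SE 0.08) showed the same picture, with ko replicate 4 at 98.5 CPM within the wt range of 97.1 to 110. Wdr43 (-0.25, SE 0.06, adjusted p = 0.00834), Ncl (-0.25, SE 0.06), Nop56 (-0.20, SE 0.05) and Utp4 (-0.27, SE 0.07) had no overlap between the genotypes. Ncl was read at 3193, 3266, 3040 and 2840 CPM in wt and at 2428, 2382, 2776 and 2560 in ko.

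The count at 48 h rested on single libraries. Without ko 48 h replicate 4 it was 16 lower and 1 higher, and without both libraries that stand apart 17 lower and 1 higher, the higher gene being Npm3. It was 14 without ko 72 h replicate 3, 5 without wt 48 h replicate 3, 4 without ko 48 h replicate 1, 2 without wt 48 h replicate 2, and 1 without wt 48 h replicate 1 or ko 48 h replicate 2. In ko 48 h replicate 4 Nolc1 (292 CPM), Polr1b (77.2), Utp20 (118) and Bop1 (179) stood within or above the wt range, while Wdr43, Wdr75 and Ncl stood with the other ko libraries. Genotype differences at 48 h also followed exon length over 9283 expressed genes (Spearman -0.40, a description across genes), with longer genes lower in ko cells, and among the 38 genes the value was -0.60. With exon length offsets 7 of the 38 were lower and the median was -0.18. Ncl (-0.16, edgeR adjusted p = 0.0989) and Rrp1b (-0.21, adjusted p = 0.0708) then did not pass, and Ltv1 did (-0.19, adjusted p = 0.0499).

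At 72 h the difference between genotypes was wider. Of the 38 genes 29 were lower in ko cells and 3 higher, where 19.5% of all tested genes were called lower and 16.9% higher (edgeR quasi-likelihood test). The median log2 fold change was -0.39 against -0.02 over all tested genes. Lower were 2 of 3 box C/D genes, 3 of 4 box H/ACA genes, 2 of 3 polymerase subunits, 3 of 6 nucleolar chaperones and regulators, 11 of 13 small subunit factors and 8 of 9 large subunit factors.

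Polr1b differed most, at -0.90 (SE 0.13, edgeR quasi-likelihood adjusted p = 1.38e-05), with ko libraries at 8.39 to 13 CPM against 22 to 25 in wt. Utp20 (-0.80, SE 0.11), Nolc1 (-0.80, SE 0.13) and Bop1 (-0.73, SE 0.09) followed. Bop1 was read at 34, 31, 26.9 and 34.2 CPM in ko and at 60.2, 57, 61.9 and 49.6 in wt. Polr1a and Mybbp1a (both -0.62), Rrp12 (-0.60), Gar1 (-0.59), Heatr1 (-0.53) and Ddx21 (-0.51) came next. The ko libraries of each of these genes lay below all wt libraries.

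The 3 genes that were higher in ko cells at 72 h were Npm1, Npm3 and Ddx10. Npm1 stood at 3348 to 3652 CPM in ko against 2512 to 3021 in wt, without overlap, at a log2 fold change of 0.43 (SE 0.08, edgeR quasi-likelihood adjusted p = 0.000123). Npm3 was higher by 0.21 (SE 0.07, adjusted p = 0.0299), with 136 to 150 CPM in ko overlapping 123 to 149 in wt. Ddx10 lay at the edge of the threshold (0.15, SE 0.06, adjusted p = 0.05), with 109 to 114 CPM in ko overlapping 104 to 118 in wt. Npm1 was the 1 gene left of these without wt 72 h replicate 1, wt 72 h replicate 3, ko 72 h replicate 2 or replicate 3, and with library-size scaling. With exon length offsets Npm3 stood at 0.05 (edgeR adjusted p = 0.501).

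The 6 genes that did not pass at 72 h were Nop58 (0.09, SE 0.08), Nhp2 (-0.04, SE 0.07), Polr1c (0.16, SE 0.07, adjusted p = 0.0748), Ncl (-0.06, SE 0.06), Nob1 (-0.02, SE 0.06) and Pes1 (0.06, SE 0.06). Ncl stood at 1405, 1325, 1297 and 1387 CPM in ko and 1613, 1574, 1480 and 1477 in wt, which did not overlap as shares of the library. On the TMM scale, which sets the libraries level by the bulk of genes, the difference was within the error. With library-size scaling Ncl stood at -0.18 (edgeR adjusted p = 0.0155) and with exon length offsets at 0.08 (adjusted p = 0.272). Scaling by library totals alone gave 32 lower and 1 higher with a median of -0.52, and moved the median of all genes to -0.14 and the split of all called genes from 2565 higher and 2961 lower to 1463 and 4779.

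**Figure D3:**
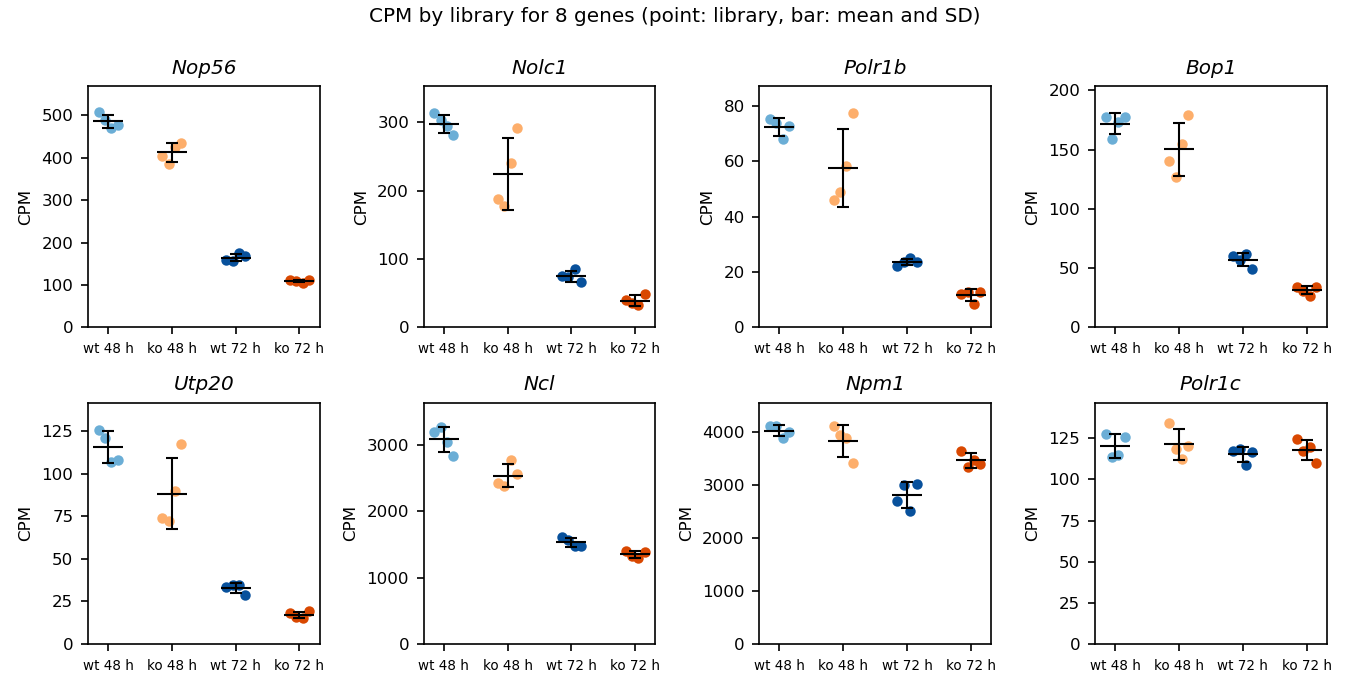
CPM (vertical axis, from 0) in every library (points) of Nop56, Nolc1, Polr1b, Bop1, Utp20, Ncl, Npm1 and Polr1c, by group, with the mean and SD of the 4 libraries as black bars. In Nolc1, Polr1b, Bop1 and Utp20 only replicate 4 of the ko libraries at 48 h reaches wt levels, and the others lie below all wt libraries. At 72 h all ko libraries of these genes lie below all wt libraries. Npm1 at 72 h is the reverse, with ko above wt.

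Whether the genotype difference changed between the times was tested directly with the interaction, the difference of ko from wt at 72 h minus that at 48 h. Of the 38 genes 6 were called lower and 1 higher, where 3.53% of all tested genes were called lower and 2.08% higher (edgeR quasi-likelihood test), and the median was -0.21 against -0.04 over all tested genes. Lower were Polr1b (-0.59, SE 0.17, adjusted p = 0.0444), Bop1 (-0.57, SE 0.12, adjusted p = 0.00535), Gar1 (-0.42, SE 0.10, adjusted p = 0.0204), Nop16 (-0.33, SE 0.09, adjusted p = 0.0262), Noc2l (-0.31, SE 0.08, adjusted p = 0.0215) and Nop56 (-0.26, SE 0.07, adjusted p = 0.039). In these 6 the fall with time was steeper in ko than in wt cells. Npm1 was the 1 gene called higher, at 0.46 (SE 0.11, adjusted p = 0.0129).

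Gar1 illustrates the change. It was read at 75.8, 79.6, 74.9 and 71 CPM in wt and 58.9, 64.3, 74 and 63.9 in ko at 48 h, where the genotypes overlapped. At 72 h it stood at 36.3, 34.6, 39.4 and 33.1 in wt and at 21.6, 21.5, 19.6 and 24.6 in ko, far apart. Bop1 at 48 h was read at 177, 159, 174 and 178 CPM in wt and at 140, 127, 155 and 179 in ko, also with overlap. Nop16 (104 to 110 CPM in wt against 92.1 to 102 in ko at 48 h, and 37.1 to 40.7 against 24.6 to 27.4 at 72 h) did not overlap at either time. It did not pass the test between genotypes at 48 h.

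Npm1 and Bop1 passed the interaction test under all 24 alternatives, and the calls of the other 5 were less stable. Noc2l kept its call in 21, Gar1 in 20, Nop16 in 16, Polr1b in 9 and Nop56 in 8 of the 24. Polr1b stood at -0.44 (edgeR quasi-likelihood adjusted p = 0.0514) without ko 48 h replicate 4. It stood at -0.43 (adjusted p = 0.054) without both libraries that stand apart. The count of members called lower was 1 without ko 48 h replicate 3, wt 72 h replicate 3 or ko 72 h replicate 3, 2 without wt 48 h replicate 4, and 3 without wt 48 h replicate 1 or wt 48 h replicate 3. It was 11 with library-size scaling, under which the median of all genes was -0.13 and 183 genes were called higher and 1230 lower, against 316 and 537.

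Ribosomal protein genes encode the protein components that the factors above assemble, and they took the opposite course. With time 63 of 79 rose and 1 fell in wt cells, and 76 rose and 0 fell in ko cells (edgeR quasi-likelihood test), with medians of 0.32 and 0.51 on the log2 scale. Of all tested genes 33.6% were called higher in wt and 34.4% in ko, with medians of 0.05 and 0.03. The 1 that fell was Rps10, read at only 3.03 to 5.25 CPM in wt cells, and it did not pass without wt 48 h replicate 1, wt 48 h replicate 4, wt 72 h replicate 1 or wt 72 h replicate 2. Rps15a rose most in both genotypes, by 0.72 (SE 0.09) in wt and 1.03 (SE 0.09) in ko, from 867 to 994 CPM in wt at 48 h to 2111 to 2286 in ko at 72 h. Rpl17 rose by 0.71 (SE 0.08) in wt. Rps2 and Rpsa were the most abundant in CPM. Rpsa rose by 0.42 (SE 0.07) in wt and 0.69 (SE 0.07) in ko, and Rps2 stood at -0.01 (SE 0.06, adjusted p = 0.928) and 0.11 (SE 0.06, adjusted p = 0.124). Many ribosomal protein genes have near-identical processed copies, so their single values are uncertain.

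Between genotypes the ribosomal protein genes also went the other way. At 48 h 22 of 79 were higher in ko cells and 0 lower, with a median of 0.15, and at 72 h 73 were higher and 0 lower, with a median of 0.40 (edgeR quasi-likelihood test). Of all tested genes 4.41% were called higher at 48 h and 16.9% at 72 h, with medians of 0.01 and -0.02. Rpl10a differed most at both times, by 0.68 (SE 0.08) at 48 h and 1.03 (SE 0.08) at 72 h, followed by Rps27 with 0.51 (SE 0.09) and 0.64 (SE 0.09). Rpl10a was read at 1297, 1194, 1368 and 1464 CPM in wt and 2270, 2253, 1840 and 1966 in ko at 48 h, and at 1877, 1950, 1951 and 2200 in wt and 3697, 3722, 3856 and 3625 in ko at 72 h. None of its 4 groups overlapped except ko at 48 h with wt at 72 h. The count at 48 h was 42 without ko 48 h replicate 4 and 44 without both libraries that stand apart, 13 without wt 48 h replicate 1 or ko 48 h replicate 1, 12 without wt 48 h replicate 2 and 10 without ko 48 h replicate 2.

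Ribosomal protein genes have a shorter exon length, which is the union of a gene's exons and not the length of a transcript. Its median was 1770 bases, against 3670 for the biogenesis genes and 3676.5 for all tested genes. Genotype differences followed exon length at 72 h as well (Spearman -0.35 over 9283 genes, a description). With exon length offsets the ribosomal protein median at 48 h was 0.09 with 21 higher, against 0.15 with 22 higher in the main fit. At 72 h the ribosomal protein median with offsets was 0.26 with 62 higher, and the biogenesis median was -0.36 with 28 lower and 2 higher. The time comparisons showed little rank correlation with length (Spearman 0.07 in wt and 0.005 in ko), but the offsets moved them too. With offsets the ribosomal protein median with time was 0.43 in wt with 76 higher, and 0.62 in ko with 77 higher. The biogenesis medians were then -1.18 and -1.36, and those of all tested genes 0.11 and 0.09. In the interaction 5 ribosomal protein genes were called higher and 0 lower, 6.33% of the 79 against 2.08% of all tested genes called higher, with a median of 0.19 against -0.04. Among the 5 were Rps3a1 (0.40, SE 0.11), Rpl37a and Rps4x. This count ran from 0 to 17 as single libraries were left out, and each library except wt 48 h replicate 2 and ko 72 h replicate 4 moved it by more than 1.5 times. Rpl7 had the second largest value (0.38, SE 0.14) and did not pass.

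**Figure D4:**
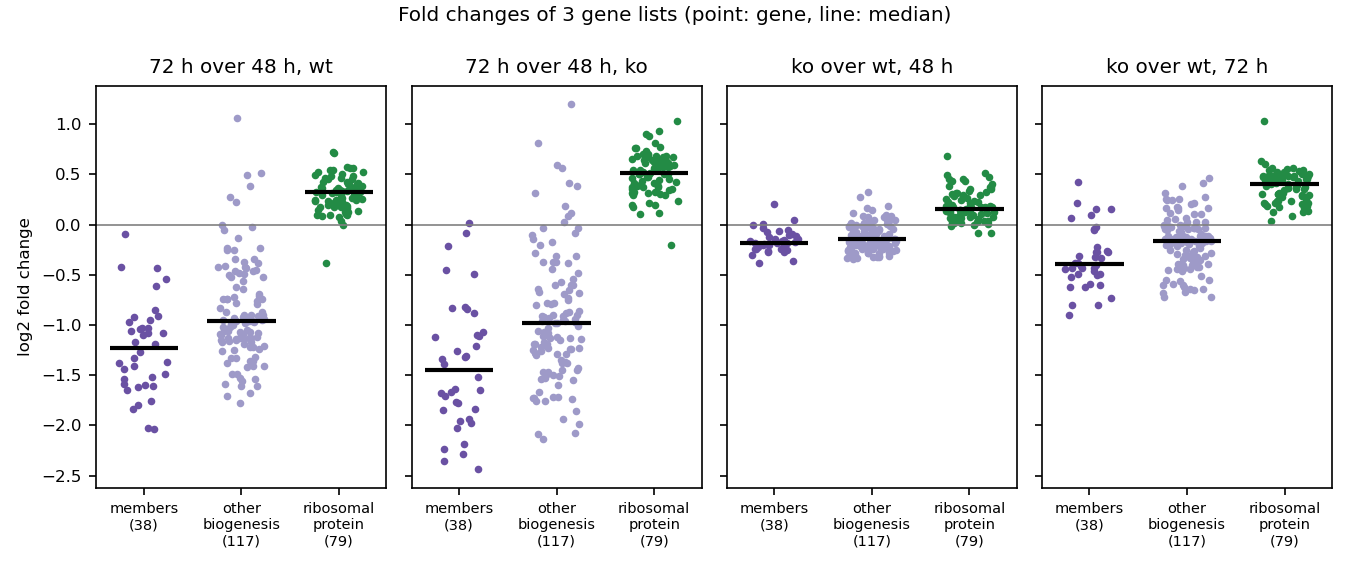
Log2 fold change (vertical axis) of every gene (points) in 3 lists, the 38 biogenesis genes, 117 other ribosome biogenesis genes and 79 ribosomal protein genes, in 4 comparisons, with the median of each list as a line. With time the biogenesis medians lie at -1.23 in wt and -1.45 in ko and the ribosomal protein medians at 0.32 and 0.51; between genotypes at 72 h they lie at -0.39 and 0.40.

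The opposite courses show in the summed shares of each library. The 38 genes took up 1.40% ± 0.041 of counted reads (SD, n = 4) in wt at 48 h, 1.24% ± 0.037 in ko at 48 h, 0.743% ± 0.022 in wt at 72 h and 0.716% ± 0.022 in ko at 72 h. The 79 ribosomal protein genes took up 11.5% ± 0.498, 12.8% ± 0.882, 14.6% ± 0.584 and 17.7% ± 0.419 in the same order. Ribosomal protein reads thus outnumbered those of the 38 genes 8.22-fold ± 0.564 in wt and 10.3-fold ± 0.931 in ko at 48 h, and 19.6-fold ± 0.480 in wt and 24.7-fold ± 1.21 in ko at 72 h. The ratio did not overlap between any 2 groups. It ran from 7.61 to 8.81 in wt and from 9.44 to 11.3 in ko at 48 h, and from 19.2 to 20.3 in wt and from 23.4 to 26.2 in ko at 72 h.

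Npm1 and Ncl made up much of the summed share. Without them the other 36 genes took up 0.691% ± 0.018 in wt and 0.603% ± 0.040 in ko at 48 h, and 0.308% ± 0.0045 in wt and 0.234% ± 0.0094 in ko at 72 h. At 72 h the 38 together overlapped between genotypes (0.714% to 0.765% in wt, 0.698% to 0.746% in ko), and the 36 did not (0.304% to 0.315% in wt, 0.220% to 0.240% in ko).

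**Figure D5:**
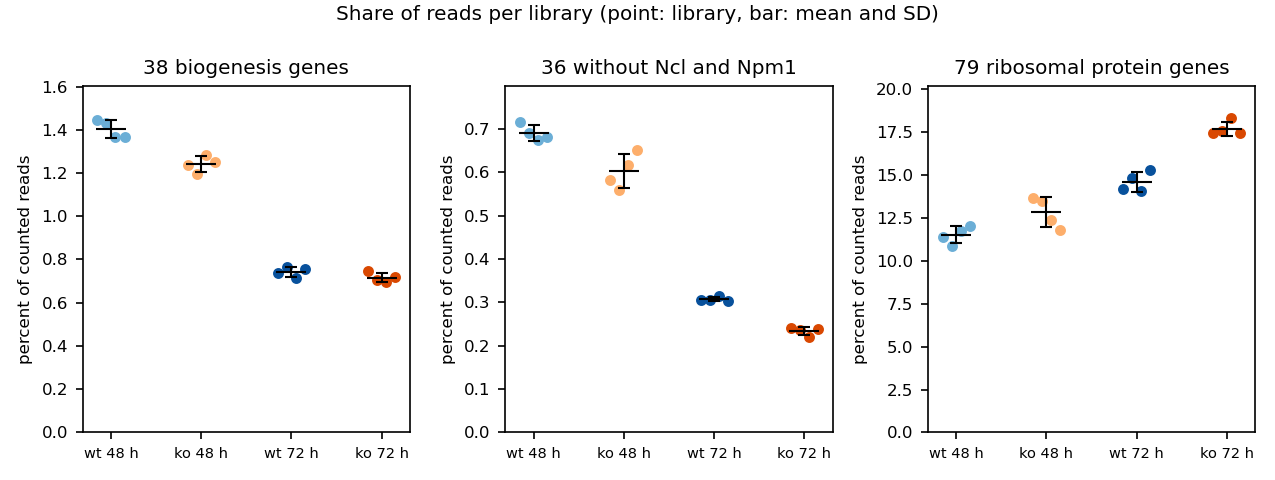
Percent of counted reads (vertical axis, from 0) in every library (points) for the 38 biogenesis genes, for 36 of them without Ncl and Npm1, and for 79 ribosomal protein genes, with the mean and SD of each group. The biogenesis shares drop from 48 h to 72 h and the ribosomal protein share rises; without Ncl and Npm1 the ko libraries at 72 h (0.220% to 0.240%) lie below the wt libraries (0.304% to 0.315%).

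Levels per exon length spanned more than 2 orders of magnitude. In wt cells at 48 h Npm1 stood highest at 1515 CPM per kb, followed by Ncl at 302.8, Nhp2 at 210.7 and Npm3 at 199.3. Lowest were Polr1a at 7.14, Wdr12 at 9.999, Utp20 at 11.3, Polr1b at 12.5 and Rrp1b at 13.7 CPM per kb, genes with exons that sum to between 5805 and 11955 bases. At 72 h in ko cells Npm1 stood at 1302 CPM per kb, Utp20 at 1.69 and Polr1a at 1.89.

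The E-box genes were compared with the others as a description, since neither group was tested as a list. The 8 genes whose promoter held CACGTG had a median log2 fold change with time of -1.43 in wt and -1.58 in ko, and the 25 without it -1.10 and -1.32. The ranges overlapped widely. Among the 8, Grwd1 showed the largest fall of all members in wt cells (-2.03) and Pes1 one of the smallest (-0.61). Between genotypes the medians were -0.19 and -0.17 at 48 h and -0.41 and -0.38 at 72 h.

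Myc itself was read at 341, 321, 331 and 327 CPM in wt and 250, 252, 298 and 331 in ko at 48 h, and at 221, 212, 227 and 190 in wt and 156, 169, 130 and 162 in ko at 72 h. The genotypes overlapped at 48 h through ko replicate 4 and did not overlap at 72 h. Its log2 fold change between genotypes was -0.19 (SE 0.07, edgeR quasi-likelihood adjusted p = 0.121) at 48 h and -0.33 (SE 0.08, adjusted p = 0.00123) at 72 h, and the interaction did not pass (-0.14, SE 0.11, adjusted p = 0.49). With time Myc changed by -0.66 (SE 0.08) in wt and -0.81 (SE 0.08) in ko.

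A further 117 genes of ribosome biogenesis, listed by function with earlier results of these data known, mostly fell with time as well. In wt cells 107 fell and 6 rose, with a median of -0.96, and in ko cells 101 fell and 8 rose, with a median of -0.98 (edgeR quasi-likelihood test; the shares of all genes called are those given above). By role, 8 of 9 snoRNP factors, 7 of 12 polymerase I subunits and factors, 41 of 43 small subunit factors and 51 of 53 large subunit factors fell in wt cells. The largest falls in wt were those of Rrp15 (-1.78, SE 0.09), Ftsj3 (-1.71, SE 0.07), a methyltransferase, Noc4l (-1.67, SE 0.07) and Pno1 (-1.61, SE 0.10). In ko cells Pwp2 (-2.14, SE 0.10), a processome protein, Wdr18 (-2.09, SE 0.08), Nol6 (-2.08, SE 0.12) and Rrp15 (-1.98, SE 0.09) fell most.

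Some of the 117 rose. Nop53, a late large subunit factor, rose by 1.07 (SE 0.05) in wt and 1.20 (SE 0.05) in ko, from 204, 208, 225 and 219 CPM in wt at 48 h to 470, 454, 471 and 431 at 72 h. Nsa2 rose by 0.51 (SE 0.07) and 0.81 (SE 0.07), and Ddx52 by 0.38 (SE 0.07) and 0.56 (SE 0.07). Ttf1, which terminates polymerase I transcription, rose by 0.49 (SE 0.07) in wt and 0.32 (SE 0.07) in ko. Taf1b, a subunit of the polymerase I selectivity factor, rose by 0.27 (SE 0.07) and 0.59 (SE 0.07). Taf1d rose by 0.22 (SE 0.09) in wt cells. With Ttf1 and Taf1b this made 3 of the 12 polymerase I subunits and factors (25%). Of all tested genes 33.6% were called higher, so that share was below that of all genes.

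Between genotypes more of the 117 were lower than higher in ko cells. At 48 h 24 were lower and 1 higher (median -0.14), 20.5% and 0.855% of the list, where 2.66% of all tested genes were called lower and 4.41% higher. At 72 h 53 were lower and 12 higher (median -0.16), 45.3% and 10.3% of the list, where 19.5% of all tested genes were called lower and 16.9% higher, so that the share higher was below that of all genes. Largest among those lower at 48 h were Urb2 (-0.35, SE 0.09), Efl1 (-0.33, SE 0.08), Nifk (-0.33, SE 0.09) and Mak16 (-0.32, SE 0.07), and Znhit3 was the 1 higher (0.32, SE 0.10). The 24 became 5 without wt 48 h replicate 1, 7 without wt 48 h replicate 2, 8 without ko 48 h replicate 2, and 13 without wt 48 h replicate 4 or ko 48 h replicate 1. Znhit3 did not pass without wt 48 h replicate 1, 2 or 3, ko 48 h replicate 1 or 2, wt 72 h replicate 2 or any one of the ko 72 h libraries. At 72 h Mdn1 (-0.72, SE 0.18), an ATPase that remodels large subunit particles, Nol6 (-0.72, SE 0.12), Pwp2 (-0.68, SE 0.10) and Tcof1 (-0.67, SE 0.11), the treacle protein of polymerase I, were lowest. Taf1d (0.47, SE 0.09), Nsa2 (0.41, SE 0.07), Nufip1 (0.38, SE 0.07) and Taf1b (0.31, SE 0.07) were highest.

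In the interaction 6 of the 117 were called lower and 2 higher, with a median of -0.06. These shares (5.13% and 1.71%) and the median were near those of all tested genes (3.53%, 2.08% and -0.04), and the genes below are given as single values. Lower were, among others, Pwp2 (-0.55, SE 0.14), Wdr18 (-0.53, SE 0.10), Nol9 (-0.42, SE 0.10) and Ubtf (-0.38, SE 0.08), the upstream binding factor of polymerase I. Ubtf was read at 318, 316, 310 and 300 CPM in wt and 281, 263, 292 and 271 in ko at 48 h, and at 128, 123, 131 and 123 in wt and 86.1, 80.7, 72.9 and 82.6 in ko at 72 h, with no overlap between any 2 groups. Higher were Nufip1 (0.52, SE 0.10), an snoRNP assembly factor, and Utp14a (0.37, SE 0.09). The 6 were 3 without wt 72 h replicate 3 or ko 72 h replicate 3 and 10 without ko 72 h replicate 4, and the 2 ran from 1 (without wt 48 h replicate 1, ko 48 h replicate 3, wt 72 h replicate 3 or ko 72 h replicate 1) to 5 (without wt 72 h replicate 4), with 4 when either ko 48 h replicate 1 or ko 72 h replicate 2 was left out.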

How the data were processed

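The authors deposited a table of whole-number counts, reads assigned to each gene with no scaling. Tools named in the submitters' processing notes are bcl2fastq 2.2.0, STAR 2.7 and featureCounts, with genome build GRCm38. Strandedness of counting, annotation release and treatment of multiply matching reads were not given in the sources used here. Overlapping genes, antisense genes and near-identical copies are therefore uncertain. Per the labels' protocols, stranded libraries started from 100 ng of RNA. Positions and exon lengths (the union of a gene's exons) came from GENCODE M21, which held 55154 of the 55335 identifiers.

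CPM here is a count over the library's own total. Tests were made on the counts of all 16 libraries, in the 4 groups of the labels, with edgeR 4.0.16 (R 4.3.3), using TMM scaling, filterByExpr (minimum count 10), robust dispersion and a two-sided quasi-likelihood F test. P-values were adjusted by Benjamini-Hochberg over 15197 genes with a threshold of 0.05, and the standard error is the size of the log2 fold change over the root of F. The procedure was tested on simulated data. No 2 libraries of a group agreed within sampling noise. Members and lists were chosen with earlier results of these data known. Named were, in each role, the member with the highest mean CPM and the one with the largest interaction, and, in each comparison, the 4 largest rises and falls past the threshold (among the 117, of genes whose mean log2 CPM reached 3) and 2 ribosomal protein genes. Others named were chosen after their values were seen. Values of some genes that this rule names are not reported here. Alternatives were library-size or median-ratio scaling, DESeq2 1.42.0, limma-voom (limma 3.58.1), no filter, only the groups compared, a replicate block, leaving out each library or both that stand apart, and exon length offsets.

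Genes of one chromosome are left out of the promoter shares.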

Additional observations from a re-analysis of the deposited data

Results flagged for a closer look

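In 6 of 160 groups of 4 libraries, 1 library lay farther from the others than Dixon's 95% limit, where chance gives about 1 in 20. Polr1c had 108.6 CPM in wt 72 h replicate 3, below the 117 to 118 CPM of the others. Rcl1 was low in ko 48 h replicate 2 (64.32 CPM) and in wt 72 h replicate 2 (27.04 CPM). Rrs1 was high in ko 48 h replicate 3 (82.93 CPM), and Nop16 was high in wt 72 h replicate 3 (40.71 CPM). The ribosomal protein genes took up 18.32% of counted reads in ko 72 h replicate 3, against 17.4% to 17.6% in the other ko libraries at 72 h.

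The genotype difference of 7 members differed between 72 h and 48 h by the interaction test, and only Npm1 and Bop1 kept this call under all 24 alternatives. On the log2 scale it changed by -0.2619 in Nop56, -0.4167 in Gar1, -0.5936 in Polr1b, -0.5655 in Bop1, -0.3257 in Nop16 and -0.3063 in Noc2l, and by 0.4589 in Npm1.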

How the results depend on the processing

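The time comparisons of the 38 genes kept their direction and side of the threshold in nearly all of the 25 alternatives. In wt cells 949 of 950 refitted values kept both their sign and their call, and in ko cells 938 of 950. Between genotypes 840 of 950 did at 48 h and 905 of 950 at 72 h. The labels do not say that a replicate number pairs libraries, and groups of 4 libraries cannot settle it. Of 24 same-numbered pairs 9 had a correlation of deviations over 0.1 (range -0.599 to 0.294). In 4 of the 24 the same number was also the best match. With the replicate block 0 of the 117 other biogenesis genes were higher at 48 h and 0 ribosomal protein genes were called in the interaction. Groups of 4 libraries limit the precision, the counts at 48 h moved with single libraries of both genotypes, and the causes of the changes below were not tested.

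At 48 h the members lower were 13 with DESeq2 and 13 without a filter, and 17 (1 higher) without both libraries that stand apart. They ran from 1 to 16 as single libraries were left out, and those higher from 0 to 1. The other biogenesis genes higher were 0 with either other scaling, 2 without a filter or with only the groups compared, and 6 without both libraries (0 to 2 without single libraries). Those lower were 39 with DESeq2 and 43 without both (5 to 35). Ribosomal protein genes higher were 44 without both (10 to 42).

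At 72 h the members higher were 1 with library-size scaling and 5 without both libraries (1 to 3), and the other biogenesis genes higher were 5 with library-size scaling. With exon length offsets 0 ribosomal protein genes were lower with time in wt (0 to 1 without single libraries) and 1 member was higher with time in ko cells.

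In the interaction the members lower were 11 with library-size scaling (1 to 9 without single libraries). The other biogenesis genes higher were 1 with library-size scaling, 7 with DESeq2, 5 without both libraries and 6 with exon length offsets (1 to 5), and those lower were 16 with library-size scaling and 11 without a filter (3 to 10). Ribosomal protein genes higher were 1, 19, 13, 12 and 8 with library-size scaling, DESeq2, no filter, without both libraries and with offsets (0 to 17).

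Some values changed sign. Neither the reported value nor the one of opposite sign passed the threshold. At 48 h they were Nhp2 (-0.00892 with median-ratio scaling, -0.00894 with DESeq2, -0.0312 with library-size scaling, -0.0971 with offsets, -0.0302 to 0.0477 without single libraries), Npm1 (0.0363 without both, -0.081 to 0.0362), Polr1c (-0.0217 to 0.0812) and Nob1 (-0.0311 to 0.0102). At 72 h they were Nop58 (-0.03) and Pes1 (-0.0653) with library-size scaling, Ncl (0.0827 with offsets) and Nob1 (-0.0412 to 0.00319). With time Polr1c reached 0.0508 in wt with offsets, and in ko -0.0444 with library-size scaling, -0.0254 without a filter and -0.00517 without both (-0.0167 to 0.0857), and Npm1 reached 0.0593 in ko with offsets. In the interaction they were Npm3 (-0.0762 with library-size scaling, -0.0459 with offsets, -0.0527 to 0.0795), Wdr75 (0.0123 with offsets, -0.0828 to 0.0378), Nob1 (0.00944 without both, 0.00845 with offsets, -0.0362 to 0.0306), Rrp1b (-0.0525 with library-size scaling, -0.0222 to 0.114), Nhp2 (-0.0937 to 0.00177), Utp4 (-0.103 to 0.0359) and Nop14 (-0.067 to 0.015). Of these genes 5 passed, with the reported sign, under another alternative. They were Npm1 with time in ko (-0.148 with library-size scaling, -0.157 without ko 48 h replicate 4, -0.156 without both), Polr1c with time in ko (0.146 with offsets), and at 72 h Ncl (-0.182) and Nob1 (-0.148) with library-size scaling and Nop58 (0.183) without both.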
